A study of Mus musculus with 40 samples.

Results

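The genes of the mouse mitochondrial chromosome were examined in RNA-sequencing data of FACS-sorted cells from colon tumors, blood and healthy colon. They were all genes of the deposited tables whose symbol starts with mt-, which gave 37 of 45706 genes. Of these members, 13 encode proteins, 2 encode rRNAs and 22 encode tRNAs. The rule used no measured value, but it was set with earlier results of these data known.

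Tumors were induced in mice of the strain C57Bl6/Sv129 that carried the transgene Cdx2CreERT2 - Apc fl/fl. The Cdx2 promoter directs the tamoxifen-inducible Cre recombinase to intestinal epithelium, where it deletes Apc, a negative regulator of Wnt signaling. One dose of tamoxifen at 25 mg/kg was given at 8 to 10 weeks of age. Healthy mice were C57Bl6 without the transgene and without an agent, so strain, transgene, tamoxifen and tumor cannot be told apart in any comparison of tumor-bearing with healthy mice. The strain number in the labels of the tumor samples runs from 129 to 152, and it was read as one strain. Each of the 10 groups held 4 libraries.

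Neutrophils were sorted as CD45+ EpCAM- CD11b+ MHCII- Ly6G+ cells with low Ly6C, and monocytes as CD45+ EpCAM- CD11b+ MHCII- Ly6G- cells with high Ly6C. Both were taken from 3 sources, which were tumors, the blood of tumor-bearing mice and healthy blood. Epithelial cells (CD45- EpCAM+) and stromal cells (CD45- EpCAM-) came from tumors and from healthy colon. Tissue was digested with enzymes before the sort, and blood was only lysed for red cells, so digestion and tissue cannot be told apart in the comparisons of tumor with blood. The titles of 4 libraries name 2 animals each, and p-values measure the spread between these libraries.

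The mitochondrial genome is a small circular DNA that is present in many copies per cell and is transcribed from both strands into long precursor RNAs. Most of its tRNAs lie between the longer genes, and cutting the precursor at the tRNAs releases the rRNAs and mRNAs. Its proteins are subunits of the respiratory chain complexes I, III and IV and of the ATP synthase, complex V, while the other subunits are made from nuclear genes. Circulating neutrophils are known for few mitochondria and for energy from glycolysis, and the epithelium of the colon is known for many mitochondria.

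In the GENCODE annotation of GRCm38 (mm10), the members fill chromosome M from position 1 to 15422 with few bases between them. The chain starts with mt-Tf (1 to 68), mt-Rnr1 (70 to 1024), mt-Tv (1025 to 1093), mt-Rnr2 (1094 to 2675), mt-Tl1 (2676 to 2750) and mt-Nd1 (2751 to 3707). A group of 9 members, mt-Nd6 and 8 tRNAs, lies on the minus strand. Whether strand was used in counting is not given in the sources used here, so RNA of one strand cannot be told apart from antisense RNA of the other. The 3 tRNAs with the most counts are shown in lower case, 5′ to 3′, because they are the tRNAs on which values are given throughout. They are mt-Tl1 and mt-Tf on the plus strand and mt-Ts1 on the minus strand (6870 to 6938).

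mt-Tl1: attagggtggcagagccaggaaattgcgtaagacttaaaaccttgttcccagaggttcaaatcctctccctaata
mt-Tf: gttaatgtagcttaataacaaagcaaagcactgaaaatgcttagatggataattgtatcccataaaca
mt-Ts1: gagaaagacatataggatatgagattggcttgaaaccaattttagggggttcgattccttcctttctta

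There are 9 pairs of neighbors that overlap, and reads in the shared bases belong to both genes. The longest overlap is the 43 bases that mt-Atp8 (7766 to 7969) shares with mt-Atp6 (7927 to 8607). The next sequences show this junction, chrM:7897-7999, and that of mt-Nd4l (9877 to 10173) with mt-Nd4 (10167 to 11544), chrM:10137-10203, on the plus strand with the shared bases in capitals. The first capitals in each are the start codon of the second gene.

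mt-Atp8/mt-Atp6: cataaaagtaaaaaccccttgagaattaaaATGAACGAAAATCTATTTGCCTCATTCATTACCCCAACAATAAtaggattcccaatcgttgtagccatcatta
mt-Nd4l/mt-Nd4: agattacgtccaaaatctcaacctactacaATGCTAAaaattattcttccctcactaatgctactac

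The mouse nuclear genome carries copies of mitochondrial genes, and 18 annotated nuclear genes matched a member at 85% identity or more over at least 100 bases. They decide how far counts can be assigned to chromosome M. Over its whole aligned length, Gm28661 on chromosome 1 is 100% identical to mt-Co2, Gm13340 on chromosome 2 is 97.6% identical to mt-Co1, and Gm11410 on chromosome 4 is 92.9% identical to mt-Cytb. The first 120 aligned bases of each pair are given in the direction of the gene, with the bases that differ within the pair in capitals. There were 3 differences for mt-Co1 (chrM:5328-5447) and Gm13340 (chr2:22589528-22589647, minus strand), 0 for mt-Co2 (chrM:7013-7132) and Gm28661 (chr1:24615446-24615565, minus strand), and 7 for mt-Cytb (chrM:14146-14265) and Gm11410 (chr4:80003990-80004109, plus strand).

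mt-Co1: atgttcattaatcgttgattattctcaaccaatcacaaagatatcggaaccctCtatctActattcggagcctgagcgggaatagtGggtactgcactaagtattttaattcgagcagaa
Gm13340: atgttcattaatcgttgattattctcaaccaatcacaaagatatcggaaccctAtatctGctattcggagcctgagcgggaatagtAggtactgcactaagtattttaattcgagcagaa
mt-Co2 and Gm28661: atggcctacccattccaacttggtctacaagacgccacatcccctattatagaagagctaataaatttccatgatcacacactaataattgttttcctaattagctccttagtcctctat
mt-Cytb: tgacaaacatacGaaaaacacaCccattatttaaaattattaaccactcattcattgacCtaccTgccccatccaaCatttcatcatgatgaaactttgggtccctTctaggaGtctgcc
Gm11410: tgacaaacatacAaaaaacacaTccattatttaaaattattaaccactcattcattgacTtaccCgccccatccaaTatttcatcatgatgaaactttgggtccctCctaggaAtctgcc

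The 18 copies held 0.404% to 9.08% of the counts of a library. In the 40 libraries, Gm28661 had 0.939 to 0.999 counts per count of mt-Co2, Gm13340 had 0.965 to 0.987 per count of mt-Co1, and Gm11410 had 0.636 to 0.748 per count of mt-Cytb. For mt-Atp6, the copy Gm10925 had 0.985 to 1.00 counts per count. For these copies the ratios were close to the same in every library, whatever its tissue. Other copies varied more, such as Gm13339 at 0.035 to 0.43 per count of mt-Nd2 and Gm4076 at 0.0902 to 0.326 per count of mt-Nd5. How reads with several matching places were counted is not given in the sources used here, so the level of each of these mRNAs is uncertain by what the copies hold. Levels of members are therefore given in nuclear CPM, which are counts scaled to a total of 1000000 counts on nuclear genes, with the members and the 18 copies left out of that total.

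Counts on genes ranged from 10717873 to 38002939 per library. The cell type labels were checked against marker genes, whose level was expressed as the median over the list in percent of a reference group, and several libraries stood apart. Among tumor neutrophils, the 10 epithelial markers were at 84.6%, 10.8%, 11.6% and 2.88% of tumor epithelium in libraries 1 to 4, against at most 0.151% in blood, and the 9 neutrophil markers were at 23.9%, 85.1%, 191% and 157% of healthy blood neutrophils. Tumor stroma libraries 1 and 2 had epithelial markers at 93.2% and 59.2% of tumor epithelium, and libraries 3 and 4 at 16.2% and 10.4%. Healthy blood neutrophil libraries 1 and 2 had erythroid markers at 142% and 141% of blood monocytes, platelet markers at 279% and 282%, and lymphocyte markers at 243% and 297%, while libraries 3 and 4 were at 1.70% and 2.47%, 8.78% and 21.9%, and 25.6% and 9.62%. The lymphocyte markers were low in that reference, so large percents stand for few counts. Their summed level was 58.8, 47.9, 3.46 and 1.36 nuclear CPM in libraries 1 to 4 and 10.7 to 56.0 in healthy blood monocytes. Among the blood neutrophils of the tumor-bearing animals, the erythroid markers were at 2.82%, 23.8%, 376% and 212% and the platelet markers at 3.96%, 23.3%, 57.4% and 59.5%, so libraries 3 and 4 were high in erythroid markers. In healthy blood monocytes the erythroid markers were at 179%, 114%, 103% and 0.420%. In healthy epithelium library 4 the members and their copies took 92.9% of the counts, which left 2685430 nuclear counts. Tumor neutrophil library 2 had 9641 genes with at least 10 counts, the fewest of the 40 libraries, against 14112 to 16786 in the other tumor neutrophil libraries. Results that rest on these libraries are given with and without them. In these bulk samples, fewer cells of a type and less RNA per cell cannot be told apart.

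The share of counts on the 37 genes differed most by cell type. It was lowest in blood neutrophils and highest in epithelium, where it ranged from 46.3% to 83.9%. In healthy blood neutrophils, libraries 1 to 4 had 14.5%, 11.4%, 5.63% and 5.34% of their counts on the members. In blood neutrophils of tumor-bearing mice the values were 11.4%, 15.0%, 16.8% and 9.36%, and in tumor neutrophils 37.5%, 33.2%, 18.1% and 16.998%. The tumor neutrophils did not overlap with the blood neutrophils of the same kind of mice.

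In blood monocytes the share was 20.7%, 31.8%, 18.7% and 19.7% in healthy mice and 17.9%, 24.6%, 25.0% and 20.3% in tumor-bearing mice, and in tumor monocytes it was 18.8%, 29.5%, 31.5% and 25.7%. These 3 groups overlapped. In stroma it was 20.5%, 16.6%, 15.6% and 24.9% in healthy colon and 55.4%, 62.9%, 27.4% and 24.8% in tumors, where libraries 1 and 2, those with the most epithelial markers, were the high ones. In epithelium it was 67.4%, 48.8%, 48.6% and 83.9% in healthy colon and 60.5%, 58.7%, 46.3% and 55.0% in tumors. Healthy epithelium library 4 was the highest of the 40.

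Nearly all of this share was rRNA. mt-Rnr1 and mt-Rnr2, the RNAs of the small and the large subunit of the mitochondrial ribosome, held 91.7% to 99.7% of the members' counts. The labels call the libraries polyA RNA, and the cDNA was amplified with the Ovation V2 kit. What part the preparation had in the rRNA counts was not tested. The 22 tRNAs together had 9.37 to 4586 counts per library.

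The mRNAs were therefore also taken alone, as counts of the 13 protein-coding members per 100 nuclear counts. In healthy blood neutrophils they were at 0.137, 0.137, 0.0224 and 0.0176, and in those of tumor-bearing mice at 0.167, 0.193, 0.146 and 0.0917. In tumor neutrophils they were at 3.20, 2.12, 0.674 and 0.531. The lowest tumor neutrophil library was above the highest blood neutrophil library.

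In monocytes the same measure was 1.18, 1.74, 1.38 and 1.58 in healthy blood, 0.920, 1.36, 2.02 and 1.44 in blood of tumor-bearing mice, and 1.09, 1.86, 1.62 and 1.63 in tumors. Healthy stroma had 1.22, 0.940, 1.38 and 2.86, and tumor stroma 6.26, 7.49, 2.15 and 2.46. Healthy epithelium had 17.7, 9.27, 8.71 and 68.7, and tumor epithelium 12.7, 11.8, 4.12 and 5.81. By median, the order rose from healthy blood neutrophils (0.0798) to blood neutrophils of tumor-bearing mice (0.156), healthy stroma (1.30), tumor neutrophils (1.395), blood monocytes of tumor-bearing mice, healthy blood monocytes (1.48), tumor monocytes (1.63), tumor stroma (4.36), tumor epithelium (8.79) and healthy epithelium (13.5). Neighbors in this order overlapped, except at the step from blood neutrophils of tumor-bearing mice to healthy stroma and at the step from tumor monocytes to tumor stroma. The mRNA level thus spread over a wider range than the share of counts.

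**Figure D1:**
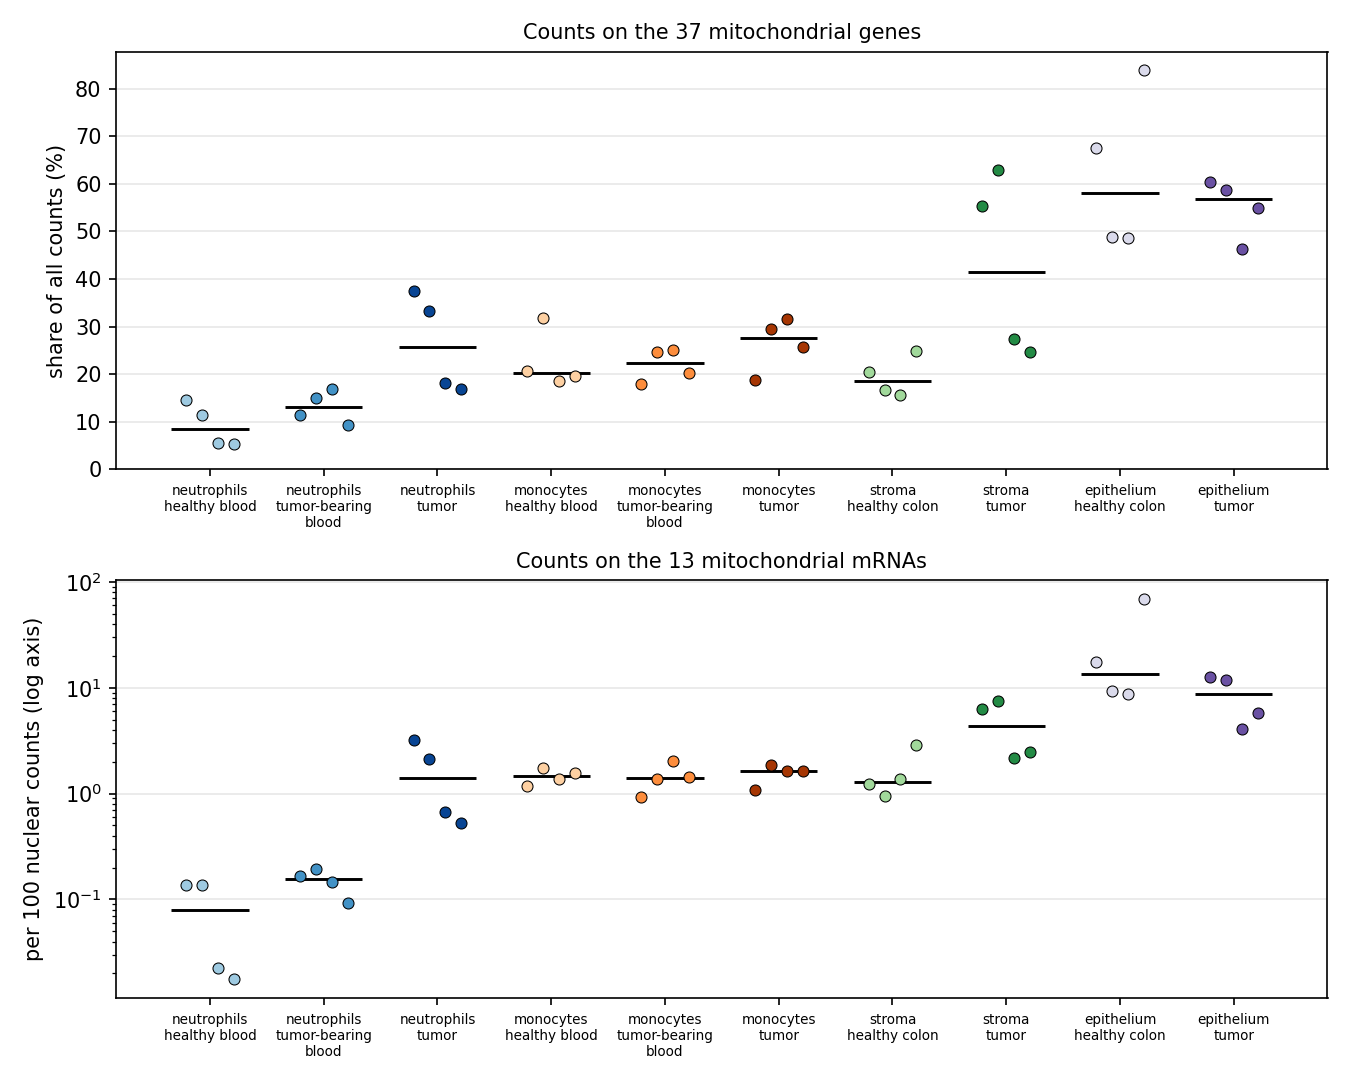
Mitochondrially encoded RNA by group: the upper panel plots the percent of all counts on the 37 genes and the lower panel the counts of the 13 mRNAs per 100 nuclear counts on a log axis, with a point for each of 4 libraries and a bar at the median. Blood neutrophils are lowest in both panels (medians 8.52% and 13.2%, and 0.0798 and 0.156), and epithelium is highest (58.1% and 56.8%, and 13.5 and 8.79).

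Levels of different genes were compared as RPKM, which divides by length. Over the 40 libraries, the median was 23749 RPKM for mt-Rnr2 and 17352 RPKM for mt-Rnr1. Among the mRNAs, mt-Co1, the core subunit of complex IV, was highest at 884 RPKM, followed by mt-Nd1 of complex I at 389. mt-Nd4 of complex I was at 257 RPKM, mt-Cytb, the complex III subunit cytochrome b, at 255, and mt-Atp6 of complex V at 246. Members of one complex differed widely in level.

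Lower levels per length were found for mt-Nd5 (146 RPKM), mt-Co3 (105), mt-Co2 (95.0), mt-Nd2 (77.7), mt-Nd4l (77.6), mt-Atp8 (72.0) and mt-Nd6 (32.8), the only mRNA of the minus strand. mt-Nd3 was lowest at 4.60 RPKM, under the tRNAs mt-Tl1 (40.3), mt-Tf (15.6) and mt-Ts1 (11.7). These tRNAs had median counts of 217, 58.7 and 48.1. By contrast, mt-Ta and mt-Tn stayed under 10 counts in 40 of 40 libraries, so the level of most tRNAs was not measurable at this depth.

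The make-up of the mitochondrial RNA also differed, most of all in blood neutrophils. The ratio of rRNA to mRNA counts was 124, 93.5, 267 and 321 in healthy blood neutrophils and 76.8, 91.2, 139 and 113 in those of tumor-bearing mice. In tumor neutrophils it was 18.9, 23.4, 32.4 and 38.3. In the 7 groups other than neutrophils it lay between 11.04 and 28.3. The 8 blood neutrophil libraries were above all 32 others. On RPKM the ratio in tumor neutrophils was 16.98, 18.1, 28.98 and 34.8, against 73.3 to 123 in blood neutrophils of tumor-bearing mice.

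Within the mRNAs, mt-Co1 took a larger part in blood neutrophils of tumor-bearing mice than in any other group. It held 67.7%, 64.6%, 69.6% and 58.5% of the mRNA counts in their libraries 1 to 4, and 31.0% to 52.3% in the 36 other libraries. The 7 complex I mRNAs held 15.8%, 16.1%, 16.1% and 21.97% there, and 29.5% to 44.8% elsewhere. Healthy blood neutrophils had 41.9%, 38.5%, 43.7% and 52.3% on mt-Co1 and 41.3%, 36.8%, 37.3% and 29.5% on complex I, and tumor neutrophils had 39.2%, 38.7%, 41.3% and 43.0% on mt-Co1. These are shares of the same total, so a rise of one member lowers the others.

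The ratio of mt-Rnr2 to mt-Rnr1 was less stable than their sum. It ranged from 1.20 to 7.40 in counts and from 0.726 to 4.47 in RPKM, and the extremes did not follow the groups. Healthy blood monocyte library 2 had a count ratio of 7.40, blood neutrophils of tumor-bearing mice library 3 had 5.99, and healthy blood neutrophil library 1 had 5.59.

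**Figure D2:**
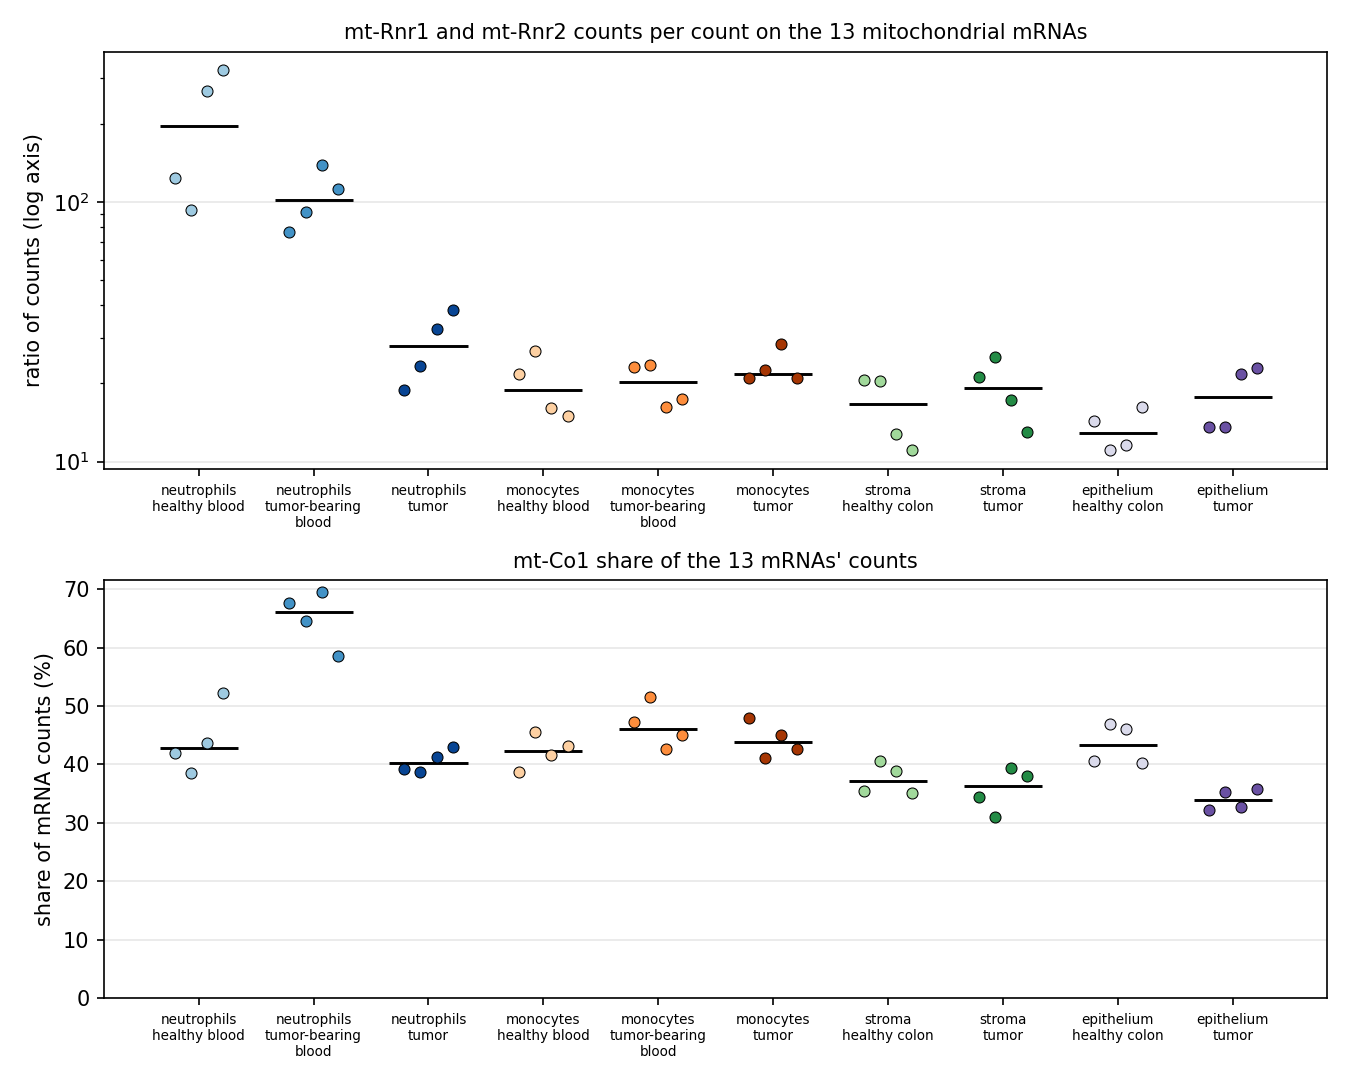
Make-up of the mitochondrial RNA by group: the upper panel plots the ratio of rRNA to mRNA counts on a log axis and the lower panel the percent of mRNA counts on mt-Co1, with a point for each library and a bar at the median. The 8 blood neutrophil libraries have ratios of 76.8 to 321 against 11.04 to 38.3 in the others, and the 4 libraries of tumor-bearing mice's blood neutrophils have 58.5% to 69.6% on mt-Co1.

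The comparison of tumor with blood neutrophils of tumor-bearing mice asks how these cells differ once they are in the tumor. Every mRNA of the mitochondrial chromosome had a higher level in the tumor neutrophils, without overlap between the groups, with log2 fold changes of at least 2.76 among them. A gene passed the test at an adjusted p under 0.05 in edgeR's quasi-likelihood test with Benjamini-Hochberg adjustment over all genes tested. All 13 mRNAs passed as higher, and 0 of the 2 rRNAs. With the test limited to genes of at least 10 counts in every library, 12 of 14 members passed, mt-Nd3 and the tRNAs being too low in blood to be tested. Among all 13674 genes tested, 12.5% passed as higher, 5.39% passed as lower and 14.0% were higher without overlap. The median log2 fold change was 4.13 over the mRNAs and 0.11 over all genes. By the study's stricter rule, which adds an absolute log2 fold change above 1.5, all members that passed, 15 with 2 tRNAs, were called as higher, against 11.9% of all genes. The 15 include mt-Nd3, mt-Tl1 and mt-Tf, kept through the tumor libraries where they were high, so their calls add no support.

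mt-Nd1, a core subunit of complex I, was at 39.2, 39.0, 67.2 and 43.1 nuclear CPM in blood neutrophils and at 3543, 3702, 843 and 618 in tumor neutrophils. The groups were far apart, and tumor libraries 1 and 2 were the highest. The log2 fold change of mt-Nd1 was 5.67 ± 0.77 (SE, n = 4 and 4, adjusted p = 0.00108 by edgeR). mt-Nd2, another core subunit, was at 4.03, 8.76, 9.56 and 3.20 nuclear CPM in blood and at 951, 798, 74.6 and 56.0 in tumors. Its log2 fold change of 6.29 ± 1.06 (adjusted p = 0.00279 by edgeR) was the largest among the mRNAs with at least 10 counts in every library.

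mt-Nd4 was at 139, 166, 112 and 120 nuclear CPM in blood and at 3618, 2379, 885 and 699 in tumors, a log2 fold change of 3.87 ± 0.55 (adjusted p = 0.00137 by edgeR). mt-Nd5 was at 72.7, 78.4, 39.7 and 30.9 in blood and at 2777, 1396, 548 and 403 in tumors, with a log2 fold change of 4.52 ± 0.63 (adjusted p = 0.00114 by edgeR). Both encode proton-pumping subunits of complex I, and neither had overlapping groups. mt-Nd6, on the other strand, was at 4.52, 4.16, 2.04 and 1.55 in blood and at 227, 92.1, 23.6 and 15.3 in tumors, with a log2 fold change of 4.78 ± 0.82 (adjusted p = 0.00303 by edgeR). mt-Nd4l had a log2 fold change of 4.89 ± 0.90 (adjusted p = 0.00451 by edgeR). mt-Nd3 passed as well, but its blood libraries held 2.52, 2.82, 2.99 and 1.23 counts against 204, 305, 45.5 and 25.1 in tumors. It was kept through the tumor libraries, so its call adds no support and the size of its change was not measurable at this depth.

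mt-Cytb was at 122, 123, 45.4 and 95.1 nuclear CPM in blood and at 3730, 1117, 906 and 721 in tumors. Its log2 fold change was 3.97 ± 0.49, and its adjusted p of 7.97e-04 by edgeR was the smallest of the members. In complex IV, mt-Co1 was at 1131, 1247, 1015 and 537 nuclear CPM in blood and at 12536, 8185, 2783 and 2281 in tumors. Its log2 fold change of 2.76 ± 0.59 (adjusted p = 0.00968 by edgeR) was the smallest of the mRNAs. mt-Co2 was at 62.2, 58.6, 24.4 and 35.2 in blood and at 718, 477, 186 and 118 in tumors, a log2 fold change of 3.12 ± 0.57 (adjusted p = 0.00439 by edgeR). mt-Co3 was at 21.4, 59.9, 54.0 and 12.2 in blood and at 1086, 1053, 123 and 105 in tumors, with a log2 fold change of 4.13 ± 0.93 (adjusted p = 0.0124 by edgeR).

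In complex V, mt-Atp6, which forms part of the proton channel, was at 66.3, 119, 83.7 and 33.4 nuclear CPM in blood and at 2125, 1654, 297 and 232 in tumors. The log2 fold changes were 3.91 ± 0.79 for mt-Atp6 (adjusted p = 0.00682 by edgeR) and 3.93 ± 0.82 for mt-Atp8 (adjusted p = 0.00819 by edgeR), which share bases. Of the tRNAs, mt-Tl1, the leucine tRNA between mt-Rnr2 and mt-Nd1, had 2.77, 8.59, 16.8 and 3.75 counts in the blood libraries and 363, 860, 38.04 and 60.1 in the tumor libraries. mt-Tf, the phenylalanine tRNA, had 4.501 to 22.7 counts in blood and 132, 67.5, 31.4 and 31.2 in tumors. Both passed, but the filter on low counts kept them through the tumor libraries, where they were high, so their calls are no support for a difference and give no measure of its size. mt-Ts1, kept in the same way, did not pass (adjusted p = 0.0841 by edgeR).

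The rRNAs differed less. mt-Rnr1 was at 33775, 70254, 29062 and 25492 nuclear CPM in blood and at 273644, 98355, 69020 and 67103 in tumors, which overlapped, and after TMM scaling the groups did not overlap. mt-Rnr2 was at 94429, 105786, 173950 and 77729 in blood and at 332076, 396964, 149749 and 136284 in tumors, and the groups overlapped. Their log2 fold changes were 1.61 ± 0.56 (adjusted p = 0.0712 by edgeR) and 1.33 ± 0.65 (adjusted p = 0.186 by edgeR), so neither passed. Without tumor library 1 alone, mt-Rnr1 passed at 1.38 (adjusted p = 0.0453 by edgeR).

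Markers of other cells moved with this comparison. Of the 10 epithelial markers, 9 rose in the tumor neutrophils, and none was at 0 in any library of either group. Their summed level was 8.89 to 19.3 nuclear CPM in blood and 152 to 2879 in tumors. Of the 4 macrophage markers tested, 3 rose, and 6 of 10 immediate-early genes known from tissue dissociation rose. Tumor library 1 was the lowest in neutrophil markers, and library 2 the next. Their macrophage markers were at 47.3% and 24.7% of tumor monocytes, against 11.02% and 10.1% in libraries 3 and 4.

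Without tumor libraries 1 and 2, 12 of the 18 tested members passed as higher, and 26.9% of all genes passed in either direction. mt-Nd3 was among the 12, and with its low counts in blood its call adds no support in any fit of this comparison. The median log2 fold change of the mRNAs was 2.80, with mt-Nd1 at 4.05, mt-Cytb at 3.22 and mt-Co1 at 1.49. mt-Co3 (1.73, adjusted p = 0.0573 by edgeR), mt-Tl1 and mt-Tf no longer passed. Whether this pair was the highest in epithelial markers depends on the measure. By the median over the list, library 2 was below library 3, at 10.8% and 11.6% of tumor epithelium. By the summed level it was above, at 607 and 441 nuclear CPM. Without libraries 1 and 3, the highest by the median, all 13 mRNAs passed with a median of 4.59, while 12.6% of all genes passed. That fit kept library 2, in which 9641 genes had at least 10 counts, the fewest of the 40 libraries. With library 4 alone as the tumor group, whose spread is then taken to be that of the blood group, 5 mRNAs passed, mt-Nd1 (3.82), mt-Nd2 (3.24), mt-Nd4 (2.51), mt-Nd5 (3.01) and mt-Cytb (3.05), against 10.4% of all genes. The median over the 13 mRNAs was 2.51. In that library the epithelial markers were still at 2.88% of tumor epithelium, against 0.0379% to 0.0766% in blood, and the part of the markers in the result was not tested.

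The nuclear genes of the same complexes moved little. Of 77 nuclear genes for subunits of complexes I to V, 68 were tested, 3 rose and 0 fell, and their median log2 fold change was 0.36. The 3 were in complex V, among them Atp5a1 (1.94 ± 0.52, adjusted p = 0.0275 by edgeR) and Atp5b (1.32, adjusted p = 0.0399 by edgeR), which encode the catalytic part of ATP synthase. Without tumor libraries 1 and 2, 1 rose and 1 fell of 70 tested. In the mitochondrial ribosome 3 of 53 tested genes rose and 0 fell, and in mitochondrial RNA processing 0 of 17 passed. The median log2 fold change of the RNA processing genes was 1.28 against 0.11 over all genes. At an unadjusted p under 0.05 in edgeR, 5 of them were higher and 0 lower. Without tumor libraries 1 and 2 their median was 0.32, and 1 rose and 3 fell of 19 tested. In transcription and replication of the mitochondrial genome 1 of 13 rose. Of 7 regulators of mitochondrial biogenesis 2 rose and 1 fell, which was Nrf1 (log2 fold change -1.17, adjusted p = 0.042 by edgeR), a transcription factor for respiratory genes.

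**Figure D3:**
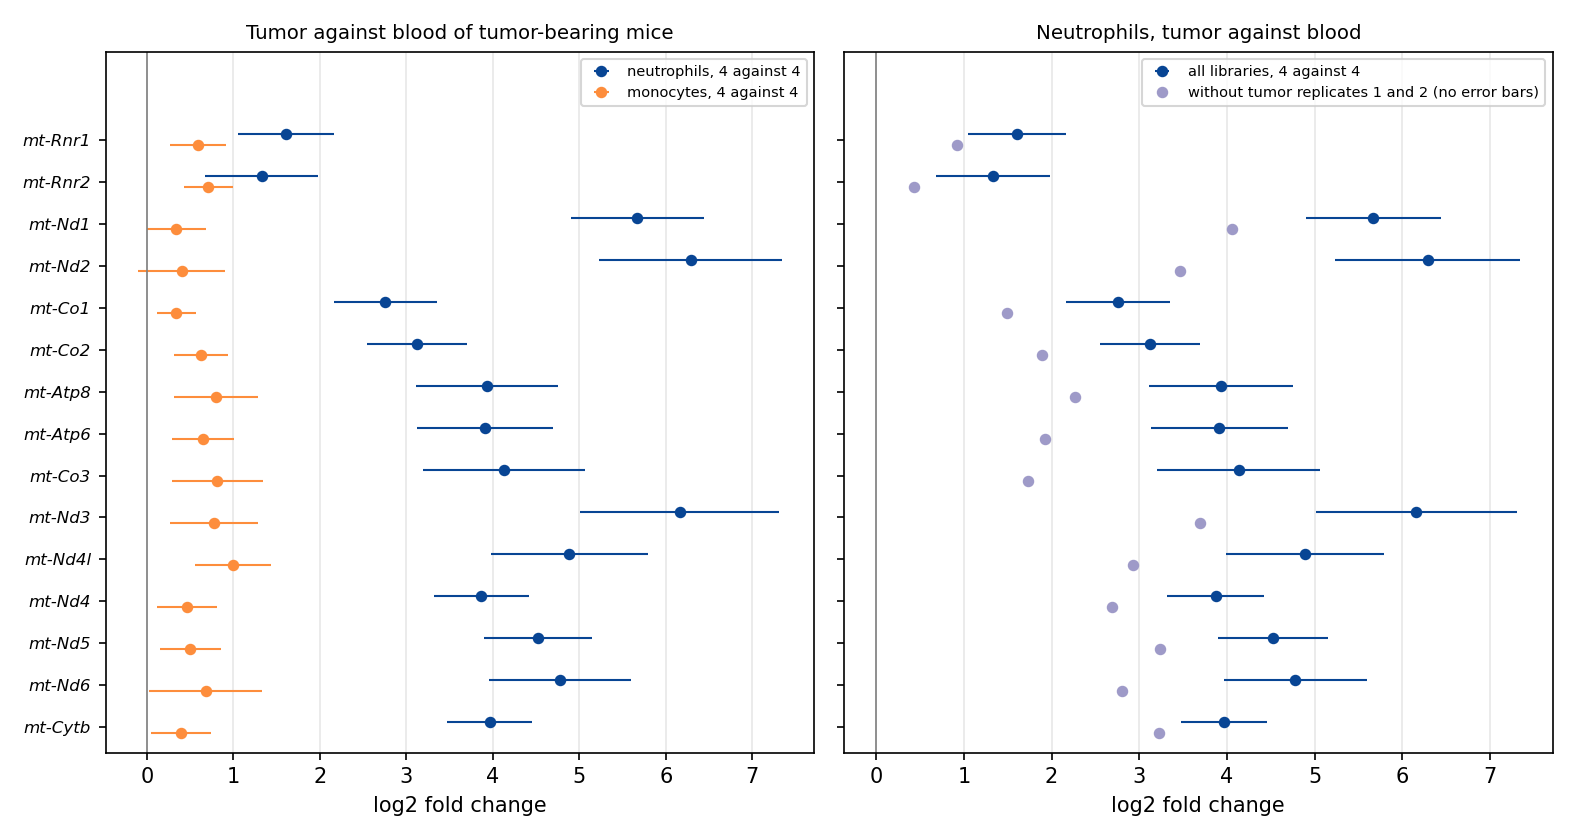
Log2 fold change of tumor against blood cells of tumor-bearing mice for the mRNAs and rRNAs, in map order: the left panel plots neutrophils and monocytes with bars of 1 SE from edgeR, and the right panel neutrophils with all libraries and without tumor libraries 1 and 2. The tRNAs tested are not plotted. The mRNAs lie at 2.76 to 6.29 in neutrophils and at 0.34 to 1.00 in monocytes.

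The same comparison in monocytes asks whether such a difference is shared by the other myeloid cells of the tumor. Of 21 members tested, 0 passed, while 10.9% of all genes tested passed as higher and 6.28% passed as lower. At an unadjusted p under 0.05, 2 members were higher, mt-Nd4l and mt-Rnr2, and 0 lower in edgeR, and 0 members passed after adjustment in DESeq2 or in limma's voom. The log2 fold changes of the mRNAs ran from 0.34 to 1.00 with a median of 0.62, and those of mt-Rnr1 and mt-Rnr2 were 0.59 and 0.71.

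mt-Nd1 was at 948, 2338, 2190 and 1351 nuclear CPM in blood monocytes of tumor-bearing mice and at 1072, 1793, 2363 and 1832 in tumor monocytes. mt-Co1 was at 4348, 7011, 8619 and 6483 in blood and at 5225, 7659, 7326 and 6963 in tumors. The groups of both genes overlapped almost completely. mt-Cytb was at 804, 624, 2009 and 1655 in blood and at 1148, 1755, 748 and 1676 in tumors. The epithelial markers were at 0.857%, 15.5%, 2.70% and 2.30% of tumor epithelium in tumor monocytes, 4 of the 6 tested rose, and 6 of 10 immediate-early genes rose. Of the nuclear respiratory genes 0 of 75 passed, with 2 higher and 2 lower at an unadjusted p under 0.05. The mitochondrial ribosome had 2 genes higher and 2 lower of 75, and RNA processing had 2 lower of 22, among them Rexo2 (log2 fold change -1.19, adjusted p = 0.0376 by edgeR), an exonuclease of mitochondria. Of 8 biogenesis regulators 2 rose, with Gabpb1, a subunit of the factor NRF-2, at 1.87 (adjusted p = 0.00188 by edgeR).

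An interaction term, fitted to the 16 libraries, tested if the tumor-to-blood difference of neutrophils was unlike that of monocytes. Of 22 members tested, 10 passed with the larger change in neutrophils, all of them mRNAs, against 2.73% of all genes tested that passed in this direction and 1.26% in the other. The difference of the log2 fold changes was 5.20 ± 0.80 for mt-Nd1 (adjusted p = 0.00211 by edgeR), 5.75 for mt-Nd2 (adjusted p = 0.00986 by edgeR) and 3.42 for mt-Cytb (adjusted p = 0.00426 by edgeR). It was 3.87 for mt-Nd5 (adjusted p = 0.00574 by edgeR) and 2.28 for mt-Co1 (adjusted p = 0.0439 by edgeR). The complex I mRNAs were all among the 10, but mt-Nd3 had under 10 counts in blood neutrophils and was kept through groups where it was high. Its call therefore adds no support, and it was not tested when at least 10 counts in every library were required. Some of these calls rested on few libraries: with 1 of the 16 libraries left out in turn, mt-Co1 and mt-Atp6 no longer passed in 14 of 16 fits each, mt-Nd6 in 13 and mt-Nd4l in 10, while the other 6 passed in all. mt-Co1 also did not pass in the fit of all 40 libraries, with the replicate block or with counts of the nuclear copies added. In voom 4 members passed, mt-Nd1, mt-Nd4, mt-Nd5 and mt-Cytb. There mt-Nd2, mt-Co1, mt-Atp6, mt-Nd3, mt-Nd4l and mt-Nd6 did not pass.

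The other mRNAs that passed were mt-Nd3, mt-Nd4l, mt-Nd4, mt-Nd6 and mt-Atp6. mt-Co2 (2.35, adjusted p = 0.0513 by edgeR), mt-Atp8 (2.98, adjusted p = 0.083 by edgeR) and mt-Co3 (3.19, adjusted p = 0.101 by edgeR) did not pass, nor did mt-Rnr1 (0.88) and mt-Rnr2 (0.49). Without tumor neutrophil libraries 1 and 2, 5 members passed, mt-Nd1 (3.65), mt-Nd2 (3.00), mt-Nd4 (2.15), mt-Nd5 (2.66) and mt-Cytb (2.75), against 3.84% of all genes in either direction. Tumor neutrophil libraries 1 and 3 and tumor monocyte library 2 were the highest in epithelial markers by the median over the list. Without them 6 passed, against 1.67% of all genes. They were these 5 and mt-Nd3, whose call adds no support because of its low counts in blood neutrophils.

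The numbers in the sample titles recur between these groups, and the labels do not say whether they mark the same animals. With the replicate block taken from those title numbers, 1 member passed the interaction, mt-Cytb (3.36, adjusted p = 0.0474 by edgeR), against 0.658% of all genes. mt-Nd1 was then at 3.98 (adjusted p = 0.0545 by edgeR) and mt-Co1 at 1.63, and the median over the mRNAs was 3.16. Of the nuclear respiratory genes 0 of 75 passed the interaction in edgeR, with 8 higher in neutrophils at an unadjusted p under 0.05.

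In blood, the level of the mRNAs in neutrophils was compared between tumor-bearing and healthy mice. No member passed, and the result depended on 2 healthy libraries. The blood neutrophils of tumor-bearing mice used here were also those compared with tumor neutrophils. Of 15 members tested, 0 passed in edgeR, 1 in limma's voom, mt-Co1, and 2 in DESeq2, mt-Co1 and mt-Co2, and at an unadjusted p under 0.05 mt-Co1 and mt-Co2 were higher and mt-Nd2 lower in edgeR. Among all genes tested 3.59% passed as higher and 2.93% as lower. mt-Co1 was the only tested member whose groups did not overlap after TMM scaling, against 8.18% of all genes that were higher without overlap.

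mt-Co1 was at 575, 530, 97.7 and 92.1 nuclear CPM in healthy mice and at 1131, 1247, 1015 and 537 in tumor-bearing mice. Its log2 fold change was 1.79 ± 0.55 (adjusted p = 0.0855 by edgeR). Healthy libraries 1 and 2, which carried the erythroid, platelet and lymphocyte markers, were above libraries 3 and 4. The same libraries were also high for mt-Nd2, at 103 and 49.4 nuclear CPM against 3.18 and 1.79 in libraries 3 and 4 and 3.20 to 9.56 in tumor-bearing mice. Its log2 fold change was -2.42 (adjusted p = 0.207 by edgeR). mt-Nd1, at 223, 153, 20.7 and 13.4 in healthy mice, had the same pattern.

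Without healthy libraries 1 and 2, 7 of 16 tested members passed as higher in tumor-bearing mice, against 4.61% of all genes that passed in either direction, and the median log2 fold change of the mRNAs was 2.75. They were mt-Co1 (3.33, adjusted p = 0.00369 by edgeR), mt-Co2 (2.74), mt-Co3 (3.59), mt-Atp6 (3.24), mt-Nd4 (1.87), mt-Nd5 (2.37) and mt-Cytb (2.27). The differences of mt-Nd1 and mt-Nd2 changed sign, from -0.90 and -2.42 with all libraries to 1.48 and 1.37, and passed in neither fit. The lymphocyte markers were at 2.16% to 18.3% of blood monocytes in tumor-bearing mice and at 25.6% and 9.62% in the healthy libraries kept. The erythroid markers were then higher in libraries 3 and 4 of the tumor-bearing mice, at 376% and 212%, than in the healthy libraries kept, at 1.70% and 2.47%, and the platelet markers were at 57.4% and 59.5% against 8.78% and 21.9%. With those libraries of the tumor-bearing mice left out too, 12 of 16 tested members passed as higher, against 10.1% of all genes, with mt-Co1 at 3.56 and a median of 3.18 over the mRNAs. In that fit of 2 against 2 libraries both rRNAs passed, at 1.78 for mt-Rnr1 (adjusted p = 0.0352 by edgeR) and 1.101 for mt-Rnr2 (adjusted p = 0.0285 by edgeR). The healthy libraries left out had more mRNA than those kept, at 0.137 and 0.137 per 100 nuclear counts against 0.0224 and 0.0176. The libraries of tumor-bearing mice left out had less, at 0.146 and 0.0917 against 0.167 and 0.193. A larger difference was thus built into both fits. Calls of mt-Nd6 and mt-Atp8, which had under 10 counts in some healthy neutrophil library, and of tRNAs add no support. Of the 9 neutrophil markers, 5 rose with all libraries. The part of these markers in the result was not tested. Of the nuclear respiratory genes 0 of 66 passed with all libraries, with 5 higher and 1 lower at an unadjusted p under 0.05 in edgeR, and 0 of 70 without the 2 libraries.

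In blood monocytes of tumor-bearing against healthy mice, 0 of 22 members passed in edgeR, 0 in voom and 0 in DESeq2, and 0 had an unadjusted p under 0.05. Few genes differed at all, with 0.0914% of all genes tested higher and 0.124% lower. The log2 fold changes of the mRNAs ran from -0.59 to 0.02. mt-Co1 was at 4586, 7921, 5746 and 6816 nuclear CPM in healthy mice, within the range of the tumor-bearing mice. Of the nuclear respiratory genes 0 of 74 passed, with 2 higher and 1 lower at an unadjusted p under 0.05.

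Neutrophils and monocytes of healthy blood were compared to set the level of circulating neutrophils beside another myeloid cell of healthy blood. Of the 13 mRNAs, 12 passed as lower in neutrophils, and the rRNAs did not pass the test. Of 20 members tested, 16 passed as lower, against 26.6% of all genes tested that passed as lower and 24.2% as higher, and 17 did not overlap, against 25.8% of all genes that were lower without overlap. Those that passed were 12 of the 13 mRNAs and the tRNAs mt-Tf, mt-Tl1, mt-Ts1 and mt-Tr. mt-Nd2 did not pass (log2 fold change -2.66, adjusted p = 0.0544 by edgeR). The tRNAs, mt-Atp8, mt-Nd3 and mt-Nd6 had under 10 counts in some neutrophil library and were kept through the monocytes, where they were high, so their calls add no support. With the test limited to genes of at least 10 counts in every library, 10 of 12 members passed as lower, 9 of 10 mRNAs and mt-Rnr1.

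mt-Co1 was at 92.1 to 575 nuclear CPM in the neutrophils and at 4586 to 7921 in the monocytes, with a log2 fold change of -3.76 ± 0.60 (adjusted p = 6.47e-04 by edgeR). mt-Nd6 was at 3.80, 5.19, 0.451 and 0.401 nuclear CPM in the neutrophils, from 34.5, 87.8, 6.20 and 5.66 counts, and at 81.5, 78.8, 82.9 and 80.3 in the monocytes. The monocytes were close together in mt-Nd6, and the neutrophils were in pairs. The rRNAs mt-Rnr1 and mt-Rnr2 had log2 fold changes of -0.82 (adjusted p = 0.0693 by edgeR) and -1.02 (adjusted p = 0.0833 by edgeR). Without neutrophil libraries 1 and 2, 21 of 22 tested members passed as lower, against 41.1% of all genes in either direction, with a median of -6.13 over the mRNAs, and both rRNAs passed at -1.50 (adjusted p = 0.00344 by edgeR) and -1.65 (adjusted p = 0.0336 by edgeR). In the libraries kept, the tRNAs together held only 20.1 and 9.37 counts, so calls of the tRNAs and of mt-Nd6 add no support. The median includes such low mRNAs and is no measure of size. The libraries left out were those with more mRNA, at 0.137 and 0.137 per 100 nuclear counts against 0.0224 and 0.0176, so a larger difference was built in.

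Of 74 nuclear respiratory genes tested, 33 passed as lower in neutrophils and 0 as higher, with 28 lower without libraries 1 and 2, against 26.6% of all genes that passed as lower. Their median log2 fold change was -1.13. Atp5a1 was at -1.93 and Atp5b at -0.97, and Uqcrc2, a core subunit of complex III, was at -0.88. In the mitochondrial ribosome 36 of 71 fell and 2 rose, one of which was Mrpl33 (2.06). In RNA processing 14 of 22 fell, led by Pnpt1 (-2.41, adjusted p = 0.00237 by edgeR), the polynucleotide phosphorylase of mitochondria. Among 14 genes of transcription and replication 2 rose and 6 fell, with Polg2, the accessory subunit of the mitochondrial DNA polymerase, higher at 1.34. Gabpb1 was higher at 2.20. Of the 10 immediate-early genes 8 were higher in the neutrophils.

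In epithelium, the mRNAs had lower levels per nuclear count in tumors than in healthy colon by median, but none passed the test. Of 25 members tested, 3 tRNAs passed as lower, against 12.0% of all genes tested that passed as lower and 10.6% as higher. They were mt-Tf (log2 fold change -2.62 ± 0.73, adjusted p = 0.0265 by edgeR), mt-Tl1 (-2.02 ± 0.64, adjusted p = 0.0449 by edgeR) and mt-Tm (-3.26 ± 0.91, adjusted p = 0.0268 by edgeR). mt-Tf was at 98.1, 49.7, 35.4 and 476 nuclear CPM in healthy epithelium and at 34.6, 27.1, 25.8 and 33.5 in tumors. mt-Tl1 was at 400, 84.0, 81.3 and 677 in healthy epithelium and at 87.3, 120, 59.1 and 78.1 in tumors, which overlapped, and mt-Tm was at 26.8, 5.34, 4.52 and 98.5 and at 2.67, 3.87, 5.04 and 4.16.

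Healthy library 4 was the highest in all 3 tRNAs. Without it 1 member passed, mt-Tf (-1.20, adjusted p = 0.0409 by edgeR), against 23.3% of all genes in either direction. Without tumor library 1, 2, 3 or 4 it was 0 members, and without healthy library 2 or 3 it was 9 or 10.

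The log2 fold changes of the mRNAs ran from -2.38 for mt-Co3 (adjusted p = 0.0544 by edgeR) to -1.19 for mt-Nd5 (adjusted p = 0.255 by edgeR), and 8 of them were lower at an unadjusted p under 0.05. mt-Co1 was at 71703, 43586, 40162 and 276258 nuclear CPM in healthy epithelium and at 41010, 41455, 13440 and 20854 in tumors. Its log2 fold change was -2.05 ± 0.71 (adjusted p = 0.0625 by edgeR), and the groups did not overlap after TMM scaling, against 13.8% of all genes that were lower without overlap. mt-Nd1 was at 26438, 11094, 9833 and 78381 in healthy epithelium and at 15875, 14224, 5462 and 6690 in tumors. mt-Rnr1 and mt-Rnr2 were at -1.73 and -1.64. Without healthy library 4 the median over the mRNAs was -0.63.

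The make-up of the mRNAs differed between healthy and tumor epithelium with and without healthy library 4. mRNAs of complex I held 35.5%, 32.9%, 33.2% and 33.8% of the mRNA counts in healthy epithelium and 43.5%, 41.4%, 39.0% and 37.8% in tumors. The groups did not overlap.

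Of 76 nuclear respiratory genes tested in epithelium, 43 fell in tumors and 0 rose, against 12.0% of all genes that passed as lower, and the median log2 fold change was -1.17. Without healthy library 4 it was 41 of 76, with a median of -1.11. By complex, 14 of 36 fell in complex I, 4 of 4 in complex II, 6 of 9 in complex III, 9 of 11 in complex IV and 10 of 16 in complex V. Complex II has no mitochondrially encoded subunit, and Sdhd, its membrane anchor, was at -1.60 ± 0.23 (adjusted p = 6.45e-04 by edgeR). The Rieske protein Uqcrfs1 of complex III was at -1.37, the complex IV subunit Cox4i1 at -1.29 and Ndufs1 of complex I at -1.14. In the mitochondrial ribosome 2 of 75 fell and in RNA processing 3 of 22, and 2 of 8 biogenesis regulators fell. Of the 10 epithelial markers, 7 fell in tumors, from a summed level of 6963 to 8172 nuclear CPM to one of 3326 to 5512. Their part in the result was not tested.

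In stroma no member passed. Of 23 members tested, 0 passed in edgeR, 0 in voom and 4 in DESeq2, and 8 were higher at an unadjusted p under 0.05 in edgeR. Among all genes tested 3.99% passed as higher and 5.56% as lower. The log2 fold changes of the mRNAs ran from 1.03 to 2.07 for mt-Atp8 (adjusted p = 0.123 by edgeR), and those of mt-Rnr1 and mt-Rnr2 were 1.85 and 1.67.

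mt-Co1 was at 4327, 3822, 5344 and 10009 nuclear CPM in healthy stroma and at 21564, 23231, 8468 and 9352 in tumor stroma. Tumor libraries 1 and 2 were high, and the others were within the range of healthy stroma. mt-Atp8 was at 58.5, 13.8, 49.4 and 93.9 in healthy stroma and at 425, 555, 88.2 and 94.3 in tumors. Without tumor libraries 1 and 2 the median over the mRNAs was 0.27. Tumor libraries 1 and 2 were those with epithelial markers at 93.2% and 59.2% of tumor epithelium, where mt-Co1 was at 13440 to 41455, and the part of these markers was not tested. The fibroblast markers were at 32.3% to 128% in tumor stroma and 1394% to 4579% in healthy stroma in percent of the mean of tumor stroma, and 7 of 8 fell, from a summed level of 8313 to 29928 nuclear CPM to one of 243 to 848. Other markers moved as well: 3 of 9 neutrophil markers and 2 of 7 monocyte markers rose. Tumor libraries 3 and 4, those kept, had neutrophil markers at 44.0% and 11.1% of healthy blood neutrophils, erythroid markers at 1464% and 438% of blood monocytes and lymphocyte markers at 224.5% and 1263%. In healthy stroma these were at most 0.858% for neutrophils, 564% for erythroid cells and 224% for lymphocytes. The part of these markers in the result was not tested. Of the nuclear respiratory genes 0 of 75 passed, with 5 higher at an unadjusted p under 0.05.

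**Figure D4:**
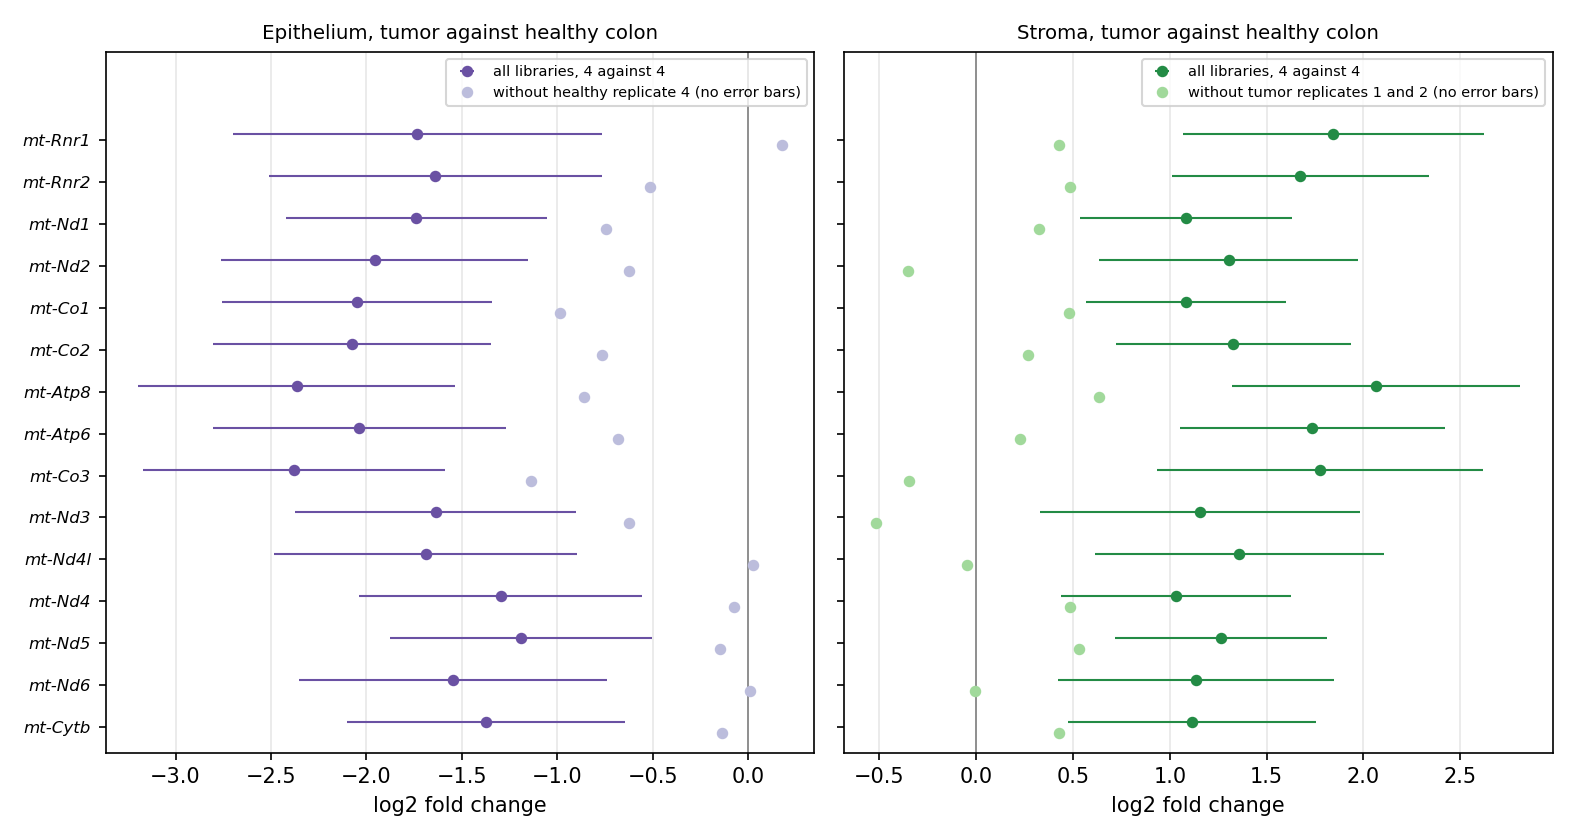
Log2 fold change of tumor against healthy tissue for the mRNAs and rRNAs, in map order, with bars of 1 SE from edgeR for all libraries: the left panel plots epithelium with all libraries and without healthy library 4, and the right panel stroma with all libraries and without tumor libraries 1 and 2. The tRNAs tested are not plotted, among them those that passed in epithelium. In epithelium the median of the mRNAs without healthy library 4 is -0.63, and in stroma it is 0.27 without the tumor libraries.

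Healthy epithelium was compared with healthy stroma of the colon. All 24 members tested passed as higher in epithelium, and so did all 18 that had at least 10 counts in every library when the test was limited to such genes, while 15.6% of all genes tested passed as higher, 22.5% passed as lower and 16.9% were higher without overlap. The log2 fold changes ran from 3.33 for mt-Nd4 to 5.03 for mt-Atp8 among the mRNAs and from 3.50 to 5.04 among the tRNAs, and they were 3.99 for mt-Rnr1 and 3.72 for mt-Rnr2. The tRNAs mt-Tv, mt-Tm, mt-Ty, mt-Td, mt-Tk and mt-Tr had under 10 counts in some library. They were kept through epithelium, where they were high, so their calls add no support and their fold changes are no measure of size. mt-Nd4 was at 1501, 839, 2085 and 4262 nuclear CPM in stroma and at 14336, 10103, 10116 and 72430 in epithelium. mt-Atp6 was at 732, 430, 567 and 1280 in stroma and at 13024, 3927, 3791 and 50548 in epithelium. The groups did not overlap in either gene, also when healthy epithelium library 4 was set aside. The titles of library 4 in both groups share the prefix Wta, and the labels do not say whether it marks the same animal.

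Without that library 24 of 24 tested members passed, against 41.1% of all genes in either direction, with a median of 2.53 over the mRNAs. Calls of tRNAs with low counts add no support there either. Of the nuclear respiratory genes 55 of 76 were higher in epithelium and 0 lower, and without the library 60 were higher. Sdhd was at 2.92, Cox4i1 at 2.91 and Uqcrfs1 at 2.87. In the mitochondrial ribosome 31 of 76 were higher. In RNA processing 8 of 22 were higher and 2 lower, among the latter Pde12 (-1.94), a nuclease that trims mitochondrial poly(A) tails. Polg2 was lower at -2.50.

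The level of the mRNAs was also set beside the markers of epithelium in the groups where these differed between libraries, as a description. In tumor neutrophils, libraries 1 to 4 had epithelial markers at 84.6%, 10.8%, 11.6% and 2.88% of tumor epithelium and mRNAs at 3.20, 2.12, 0.674 and 0.531 per 100 nuclear counts. By this median, libraries 2 and 3 had like marker levels and unlike mRNA levels. The summed level of the epithelial markers was 2879, 607, 441 and 152 nuclear CPM in libraries 1 to 4, the same order as that of the mRNAs. The part of the markers was not tested. In tumor monocytes the markers were at 0.857%, 15.5%, 2.70% and 2.30% with mRNAs at 1.09, 1.86, 1.62 and 1.63. In healthy blood neutrophils the mRNAs were at 0.137 and 0.137 in the libraries with lymphocyte markers at 243% and 297% of blood monocytes, and at 0.0224 and 0.0176 in those at 25.6% and 9.62%. In tumor-bearing mice the markers of lymphocytes were at 12.6%, 8.29%, 2.16% and 18.3%, with mRNAs at 0.167, 0.193, 0.146 and 0.0917. Their erythroid markers were at 2.82%, 23.8%, 376% and 212%, and those of the healthy libraries at 142%, 141%, 1.70% and 2.47%.

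**Figure D5:**
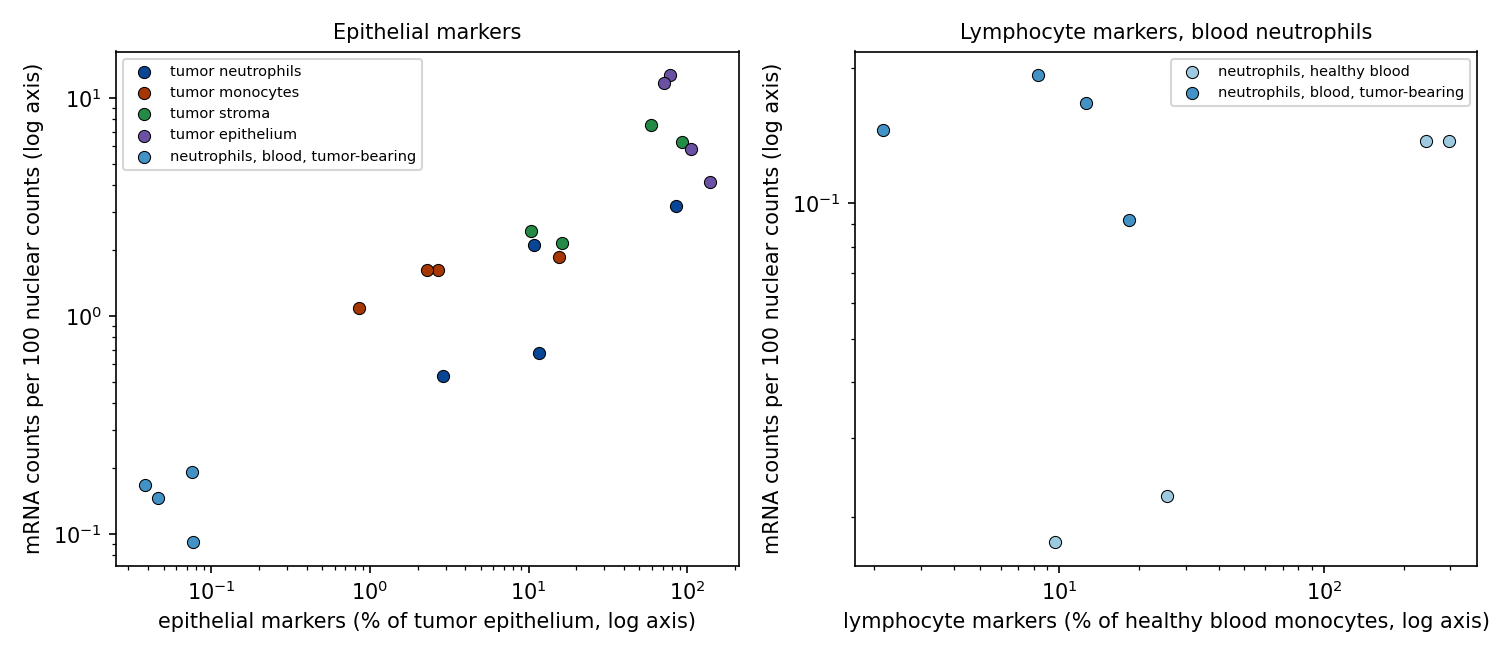
Level of the 13 mitochondrial mRNAs per 100 nuclear counts against markers of other cells, with a point for each library: the left panel plots epithelial markers in percent of tumor epithelium and the right panel lymphocyte markers in percent of healthy blood monocytes in blood neutrophils. Healthy blood neutrophils form pairs at 243% and 297% and at 9.62% and 25.6%, with mRNAs at 0.137 and at 0.0176 and 0.0224. The lymphocyte markers are low in the reference, with a sum of 10.7 to 56.0 nuclear CPM, against 58.8 and 47.9 in the first pair.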

How the data were processed

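The authors sorted the cells, isolated RNA with the PicoPure kit, amplified cDNA, sequenced TruSeq Nano libraries, mapped reads to mm10 with Bowtie 2 and counted them per gene with HTSstation. The deposited values are expected counts, without normalization, and RPKM computed by the authors from them. Treatment of multi-mapped reads, annotation release and strand are not given in the sources used here. Columns left unused numbered 0.

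Expected counts were rounded, which changed a library by at most 1105 counts. Differences were tested with robust quasi-likelihood fits (edgeR 4.0.16, R 4.3.3) of the 8 libraries compared, or 16 for the interaction, after filterByExpr and TMM, with Benjamini-Hochberg adjustment over all genes. "Passed", "rose" and "fell" mean an adjusted p under 0.05. Alternatives used limma 3.58.1 (voom, or log2 of RPKM with a pseudocount of 1 or 0.1), DESeq2 1.42.0, a minimum of 10 counts, all 40 libraries, the replicate block and libraries left out. The fits without the pairs or sets of libraries named in the results, those blocked by the numbers in the titles, and those with counts of the nuclear copies added to the members were chosen after the data were seen. The fits were tested on simulated data with 200 changed genes.

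The members and lists were chosen with earlier results of these data known. All mRNAs and rRNAs were named, the 3 tRNAs with the most counts and any that passed, and per list and comparison up to 3 genes that passed, did not overlap and reached 5 in mean log2 CPM, by size of change. Sequences and positions came from GENCODE transcripts and annotation of GRCm38. The label of 1 tumor stroma library repeats replicate number 3, and it was called library 4. The 60 pairs of replicates differed by 21.5 to 856 times counting error, so none was counted as 1 library.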

Additional observations from a re-analysis of the deposited data

Results flagged for a closer look

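In 16 of 200 groups of 4 values examined (8%), one library stood apart from the other 3 by more than Dixon's 95% critical share of the range. For independent values chance gives about 1 in 20. Most of these groups are different genes in the same libraries, so that rate cannot be compared with the 8%. Of the 16, 9 were in healthy epithelium library 4, the one with the fewest nuclear counts. It had 68.7 mRNA counts per 100 nuclear counts, and mt-Rnr1 at 4719201, mt-Co1 at 276258, mt-Co2 at 17627, mt-Nd4l at 8127, mt-Nd4 at 72430, mt-Nd5 at 46517, mt-Nd6 at 5035 and mt-Cytb at 77283 nuclear CPM.

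Healthy blood monocyte library 2 stood apart in the share of counts on the members, 31.8%, and in mt-Rnr2, at 410335 nuclear CPM. Tumor neutrophil library 1, the one with the most epithelial markers, stood apart in mt-Rnr1, at 273644 nuclear CPM, and in mt-Cytb, at 3730. In blood neutrophils of tumor-bearing mice, library 3 stood apart in mt-Nd1, at 67.2 nuclear CPM, and library 2 in mt-Nd4l, at 14.9. Healthy stroma library 4 stood apart in mt-Nd5, at 2480 nuclear CPM.

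The difference between tumor and blood was larger in neutrophils than in monocytes for 10 members, by edgeR's interaction term over 16 libraries. On the log2 scale the excess was 5.20 for mt-Nd1, 5.75 for mt-Nd2, 5.27 for mt-Nd3, 3.74 for mt-Nd4l, 3.27 for mt-Nd4, 3.87 for mt-Nd5, 3.94 for mt-Nd6, 3.42 for mt-Cytb, 2.28 for mt-Co1 and 3.12 for mt-Atp6. The value of mt-Nd3 rests on blood neutrophil libraries with 1.23 to 2.99 counts and is not a measure of size. With libraries blocked by the numbers in their titles, mt-Cytb alone passed, and mt-Co1, mt-Atp6, mt-Nd6 and mt-Nd4l did not pass in 10 to 14 of the 16 fits with 1 library left out. In voom, mt-Nd2, mt-Nd3, mt-Nd4l, mt-Nd6, mt-Co1 and mt-Atp6 did not pass.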

How the results depend on the processing

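No member that passed with all libraries changed direction in any alternative, while mt-Nd1 (1.48 in place of -0.90) and mt-Nd2 (1.37 in place of -2.42), which did not pass, did so in blood neutrophils without healthy libraries 1 and 2. With all libraries, 15 members passed in tumor against blood neutrophils, and the alternatives gave 12 to 22 (14 to 15 with 1 library left out), except that tumor library 4 alone gave 5. The 2 monocyte comparisons gave 0 in every setting, and healthy epithelium against stroma, with 24, gave 18 to 30 (19 to 25 with 1 library left out). In blood neutrophils of tumor-bearing against healthy mice, where 0 passed, voom gave 1, DESeq2 2, the replicate block 2, the fit without healthy libraries 1 and 2 7, that also without libraries 3 and 4 of tumor-bearing mice 12, and leaving out 1 library 0 to 1. The fits without healthy libraries 1 and 2 left out the healthy libraries with more mRNA, so a larger difference was built in. In tumor against healthy epithelium, with 3, voom gave 1, DESeq2 9, at least 10 counts in every library 7, log2(RPKM + 1) 0, log2(RPKM + 0.1) 0, the replicate block 0, and leaving out 1 library 0 to 10. In stroma, with 0, DESeq2 gave 4, a fit of all 40 libraries 1, the replicate block 3, and leaving out 1 library 0 to 4, with 4 without healthy library 4. In healthy blood neutrophils against monocytes, with 16, at least 10 counts gave 10, and leaving out 1 library 15 to 18. In the interaction, with 10, voom gave 4, the fit without tumor neutrophil libraries 1 and 2 gave 5, that without tumor neutrophil libraries 1 and 3 and tumor monocyte library 2 gave 6, the replicate block by title number 1, and leaving out 1 library 6 to 11. The cause of these differences was not tested. Without a filter, the median log2 fold change of all genes in epithelium against stroma was -0.58 in place of -0.14.

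The share of summed RPKM on the members had medians of 17.5% and 21.7% in blood neutrophils of healthy and tumor-bearing mice, 37.2% in tumor neutrophils, 35.2% and 37.8% in blood monocytes, 43.7% in tumor monocytes, 37.1% in healthy stroma and 65.0% in tumor epithelium, all above the share of counts.

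Libraries with the same replicate label had correlations of deviations from -0.151 to 0.251, and 9 of 32 libraries correlated best with their own label, so these labels were not taken to pair the libraries. With the replicate block, 13 members passed in tumor against blood neutrophils, 18 in healthy blood neutrophils against monocytes, 24 in epithelium against stroma and 8 in the interaction. The animal numbers in the titles also recur between groups, and the labels do not say that they mark the same animals. In healthy blood, 3 of the 4 pairs of neutrophil and monocyte libraries that share a title number had correlations over 0.1 (0.0138 to 0.313), and 0 of the 10 such pairs in the interaction (-0.14 to 0.0993). Blocked by title number, 16 members passed in healthy blood, among them mt-Nd2 (-3.88, adjusted p = 0.022 by edgeR) and without mt-Tr.

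The number of all genes that passed moved by over 1.5 times in some settings. From 2442 in tumor against blood neutrophils it became 3773 with DESeq2, 7194 with all 40 libraries, 1424 with the block and 4159 without libraries 1 and 2. From 871 in blood neutrophils it became 1737, 438 and 482 with the first 3 of these settings and 1394 with 2 against 2 libraries. From 33 in blood monocytes it became 456 with DESeq2, 18 with voom, 92 with at least 10 counts, 18 with all libraries and 14 with the block. From 2618 in tumor against blood monocytes it became 1701 with the block, and from 1822 in stroma 3624 with DESeq2 and 1209 with at least 10 counts. The latter setting gave 5034 in place of 7633 in healthy blood neutrophils against monocytes and 3861 in place of 7037 in epithelium against stroma. From 696 in the interaction it became 2015 with DESeq2, 2148 with all libraries, 398 with the block and 115 with the block by title number. It became 310 without the 3 libraries highest in epithelial markers by the median over the list. Most tRNAs had too few counts to be tested, and counts of members with near-identical nuclear copies cannot be assigned with certainty.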
